A study of Mus musculus with 70 samples.

Results

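The genes described here are the 10 G1 regulators Ccnd1, Ccnd2, Ccnd3, Cdk4, Cdk6, Cdkn1a, Cdkn1b, Cdkn1c, Cdkn2c and Rb1, taken from the 50789 genes of a raw count table by matching its versioned Ensembl identifiers to mouse symbols. They were picked for their place in the pathway, and with earlier results of these data known. Ccnd1 was included as a target of the transcriptional repressor Capicua. The study measured polyadenylated RNA in mice that lack the short isoform of Capicua (Cic-S-KO), mice that lack the long isoform (Cic-L-KO) and WT mice. Mice gave lung on postnatal day 6 or, as adults of 12 weeks, cortex and cerebellum. The WT mice of both lines were pooled as littermate controls, and which line each came from is not given in the labels. There were 9 groups and 70 samples: 8 in each group except the Cic-S-KO cortex group and the Cic-S-KO cerebellum group, with 7 each. The labels give the genotypes without naming a Cre driver or promoter.

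The passage of a cell from G1 into S phase is set by a short chain of proteins. D-type cyclins are made in response to growth signals and activate the kinases CDK4 and CDK6, which phosphorylate the retinoblastoma protein (Rb1) and so release E2F factors that switch on the genes of DNA replication. INK4 proteins such as p18 (Cdkn2c) bind CDK4 and CDK6 directly, whereas the CIP/KIP proteins p21 (Cdkn1a), p27 (Cdkn1b) and p57 (Cdkn1c) bind cyclin-CDK complexes. Capicua binds an octamer in the control regions of its targets and lowers their transcription until the RAS to ERK pathway relieves it. In adult brain most neurons have left the cell cycle, and cells that divide are mainly glial precursors and the stem cells of a few niches. Lung in the first week after birth still grows.

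Promoter sequence was in the RefSeq table for 6 of the 10 genes, in 9 windows (GRCm38.p6). Cdkn2c is shown because its transcript had the largest called change of the 10 genes in a knockout against WT, and Cdk4 and Cdkn1b because they were called in opposite directions in Cic-L-KO cortex. Each is given 5′ to 3′ on the gene's strand, from up to 250 bases before a transcript start and without annotated exon bases. The Cdkn2c stretch lies at chr4:109665373-109665609 (minus strand), the Cdk4 stretch at chr10:127063285-127063533 (plus strand) and the Cdkn1b stretch at chr6:134920151-134920400 (plus strand). Capitals mark GC boxes, GGGCGG or its reverse CCGCCC.
Cdkn2c: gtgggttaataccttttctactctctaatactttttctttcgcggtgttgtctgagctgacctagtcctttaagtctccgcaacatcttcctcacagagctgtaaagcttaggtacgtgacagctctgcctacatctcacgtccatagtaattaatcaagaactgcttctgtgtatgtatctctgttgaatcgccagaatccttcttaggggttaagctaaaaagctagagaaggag
Cdk4: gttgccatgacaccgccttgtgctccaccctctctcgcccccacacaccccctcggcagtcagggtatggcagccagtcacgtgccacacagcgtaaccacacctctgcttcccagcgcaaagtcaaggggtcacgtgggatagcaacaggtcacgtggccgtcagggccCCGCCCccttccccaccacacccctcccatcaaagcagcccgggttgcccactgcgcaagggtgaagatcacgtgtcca
Cdkn1b: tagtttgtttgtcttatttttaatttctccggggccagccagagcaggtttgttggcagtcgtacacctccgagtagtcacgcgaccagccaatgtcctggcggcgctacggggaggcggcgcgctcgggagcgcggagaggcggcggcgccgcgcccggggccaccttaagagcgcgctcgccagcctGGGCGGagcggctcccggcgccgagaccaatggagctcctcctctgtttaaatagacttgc
A further Cdkn2c window upstream was searched but is not printed, since annotated exon bases cover it. The printed Cdkn2c stretch held no GC box, and its GC content was 42.6%, against 64.3% for Cdk4 and 64.4% for Cdkn1b. That Cdkn2c stretch lies inside the gene, before an internal transcript start, whereas those of Cdk4 and Cdkn1b lie just before the start of the gene. Windows of 250 bases were searched on both strands for the Capicua octamers TGAATGAA and TCAATGAA, for the GC box GGGCGG and for TATAAA, none of which contains another. Ccnd1, the listed Capicua target, had no window in the table and was not searched, and neither were Ccnd2, Cdkn1c and Rb1. The first octamer was in 0 of the 9 windows and in 1.08% of all 32851 promoter windows of that length, and the second was in 0 of 9 and in 0.642%. A GC box was in 6 of the 9 windows (32.7% of all), in windows of Ccnd3, Cdk4, Cdkn1a, Cdkn1b and Cdkn2c. TATAAA was in 1 of the 9, that of Cdk6 (12.4% of all). A match here describes letters in a short window and says nothing of binding.

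Libraries held 17798655 to 35523037 counts, and all 10 genes passed the filter on low counts in every tissue. Total Cic RNA, given in CPM (counts scaled to a common library size), averaged 139, 172 and 135 in lung, for WT, then Cic-S-KO, then Cic-L-KO. In the same order it was 162, 251 and 298 in cortex, then 192, 213 and 212 in cerebellum, with no knockout called lower than WT. A count per gene cannot show the loss of 1 isoform, so these values check no label. Markers matched the tissue labels: summed alveolar type 2 markers were 17010 to 24119 CPM in lung and at most 327 in brain, summed neuron markers were at most 104 in lung and at least 4877 in brain, and summed granule cell markers were at most 198 in cortex and at least 3994 in cerebellum. Lung differed from brain in age and batch label, so lung and brain values are set side by side without a test. The labels do not say that replicates were separate animals, and p-values here measure the spread between the samples as deposited. In bulk tissue, fewer cells of a type and less RNA per cell cannot be told apart.

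The gene positions below are those of GRCm38 (GENCODE M21). Ccnd1 (ENSMUSG00000070348.5) lies at chr7:144929931-144939925 on the minus strand, Ccnd2 (ENSMUSG00000000184.12) at chr6:127125162-127152193 on the minus strand and Ccnd3 (ENSMUSG00000034165.16) at chr17:47505051-47599691 on the plus strand. Cdk4 (ENSMUSG00000006728.12) lies at chr10:127063534-127067920 and Cdk6 (ENSMUSG00000040274.11) at chr5:3341485-3531008, both on the plus strand. Cdkn1a (ENSMUSG00000023067.13) lies at chr17:29090976-29100727 and Cdkn1b (ENSMUSG00000003031.14) at chr6:134920401-134925513, both on the plus strand. Cdkn1c (ENSMUSG00000037664.13) lies at chr7:143458339-143461050, Cdkn2c (ENSMUSG00000028551.14) at chr4:109660876-109667189 and Rb1 (ENSMUSG00000022105.6) at chr14:73183673-73325822, all on the minus strand. Some members share exon bases with a protein-coding gene on the opposite strand: Ccnd1 shares 1100 with LTO1, Ccnd3 shares 361 with Bysl, Cdk4 shares 641 with Tspan31, and Rb1 shares 488 with Rcbtb2 and 408 with Lpar6. Whether counting used strand is not given in the sources used here, so reads from these bases cannot be told apart.

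The largest change of these genes against WT, that of Cdkn2c in cerebellum, came with loss of the long isoform. Cdkn1a in Cic-S-KO cerebellum (log2 -0.76) was close in size to Cdk6 in Cic-L-KO cortex (0.77). In Cic-L-KO cortex 7 of the 10 genes passed the test (5 higher, 2 lower), where 43.2% of all tested genes passed, 21.4% higher and 21.9% lower (edgeR quasi-likelihood test, Benjamini-Hochberg adjusted p under 0.05). In Cic-L-KO cerebellum 4 of 10 passed, all higher, against 21.5% of all genes and 10.9% higher. Cdkn2c and Ccnd1 passed in both regions, with Cdkn2c 1.59-fold higher in cortex and 2.33-fold higher in cerebellum. The median log2 fold change of the 10 genes was 0.20 in cortex, where that of all tested genes was 0.011, and 0.30 in cerebellum, where it was 0.0038. The 10 genes were chosen with earlier results of these data known, so these comparisons with all genes are a description.

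With loss of the short isoform fewer of them passed. In Cic-S-KO cortex 0 of 10 genes passed with edgeR, with 4 at an unadjusted p under 0.05 and 1 called by DESeq2, where 6.53% of all genes passed. Cic-S-KO cerebellum had 2 lower genes, Cdkn1a and Cdkn2c (8.23% of all genes passed, 3.89% lower), and Cic-S-KO lung had 2, Cdkn1a higher and Cdk6 lower (15.7% of all genes passed, 9.99% higher and 5.73% lower). Cic-L-KO lung had 4, with Cdkn1c, Ccnd3 and Ccnd2 higher and Cdkn2c lower (4.89% of all genes passed, 2.62% higher and 2.28% lower). Between the knockouts, 3 of 10 genes differed in lung (12.2% of all genes), 5 in cortex (33.9%) and 3 in cerebellum (12.4%). In all, 30 of the 90 tests within a tissue passed, in contrasts where 4.89% to 43.2% of all genes did. These tests share samples, and the total is a description. Both knockouts were compared with the same WT samples, so their values against WT are given side by side and are not independent of each other.

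**Figure D1:**
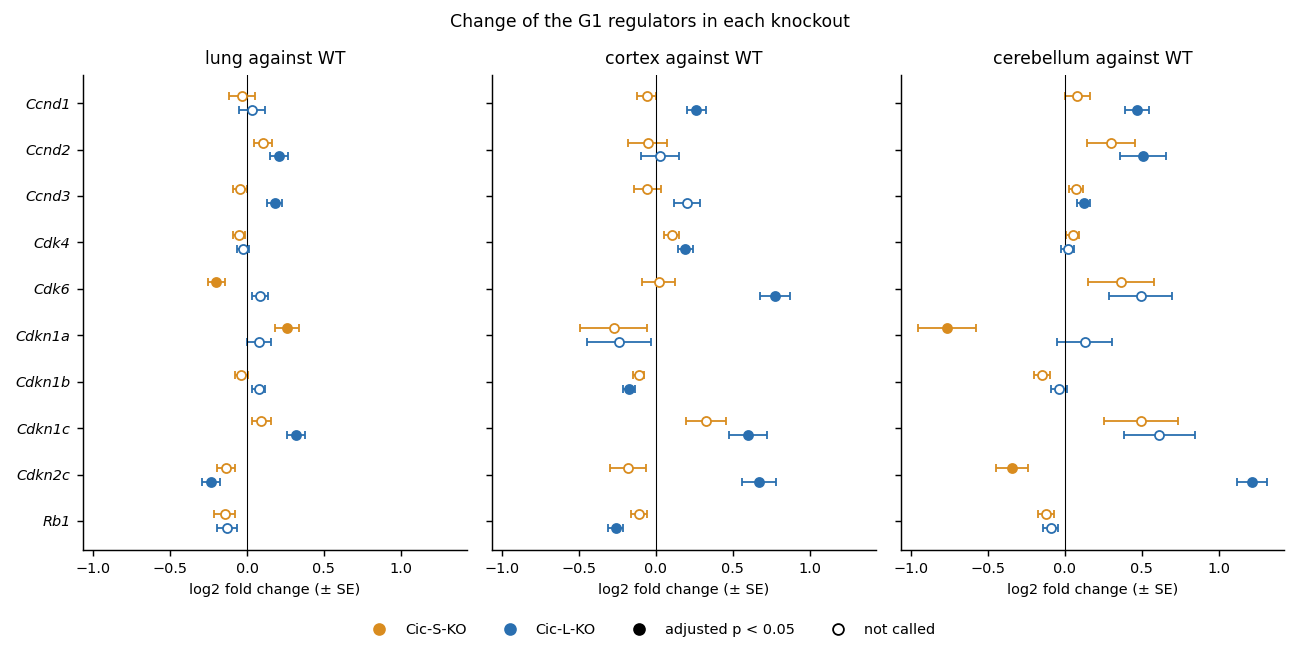
Log2 fold change (± SE) of the 10 genes in each knockout against WT, with 1 panel per tissue; filled points passed at an adjusted p under 0.05 and open points did not. The blue Cic-L-KO points of Cdkn2c stand at 0.67 in cortex and 1.22 in cerebellum and at -0.24 in lung.

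Levels were set per kilobase of exon, where exon length is the union of a gene's annotated exons over all transcripts. A gene with long annotated exons that are little used reads lower on this scale, so the order between genes is approximate. That order differed between tissues. In WT lung, Cdk4 was highest at 62.5 ± 3.45 CPM per kb (SD, n = 8), and Cdkn2c (32.8), Ccnd2 (30.8), Cdkn1b (29.2) and Ccnd1 (28.5) followed, each within 1 SD of its neighbour. Cdkn1c (20.7 ± 1.00) and Ccnd3 (18.6 ± 1.31) overlapped within 1 SD, and Cdkn1a (14.1), Cdk6 (8.14) and Rb1 (5.53) were lowest. In WT cortex Cdkn1b led at 13.5 ± 0.377 CPM per kb. Cdkn1a (9.75), Ccnd2 (9.59) and Cdk4 (8.86) came next and overlapped within 1 SD. Ccnd1 (7.47), which overlapped with Cdkn1a and Ccnd2 within 1 SD, and Rb1 (5.84) followed. Ccnd3 (1.95), Cdkn1c (1.63) and Cdkn2c (1.34) formed a low group of overlapping neighbours, and Cdk6 was lowest at 0.283 CPM per kb. WT cerebellum also had Cdkn1b highest, at 44.0 ± 3.21 CPM per kb, and Cdk6 lowest, at 0.0724. Between them lay Cdk4 (10.1), Cdkn1a (9.65) and Rb1 (7.88), which overlapped as neighbours within 1 SD, then Ccnd1 (5.19) and Ccnd3 (3.59). Cdkn2c (1.63), Cdkn1c (1.59) and Ccnd2 (1.57) could not be ordered by their spread.

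**Figure D2:**
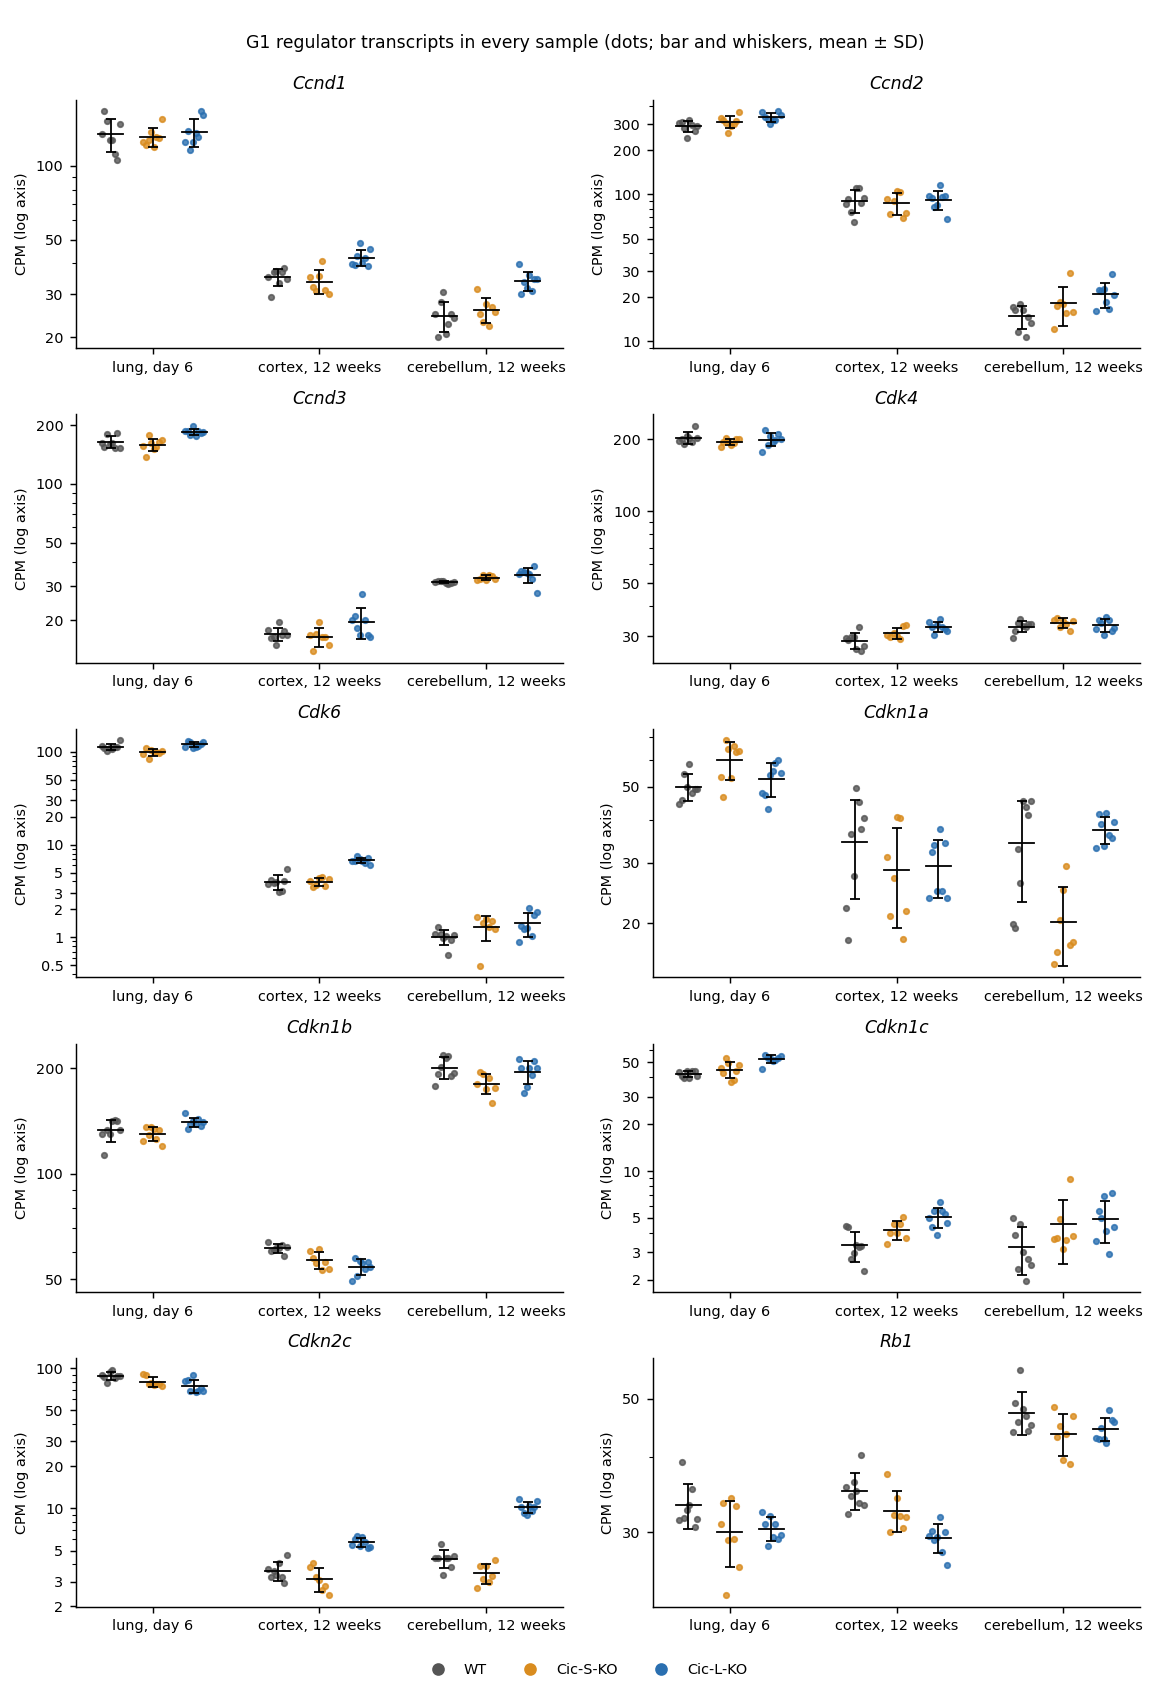
CPM on a log axis of each of the 10 genes in all 70 samples, by tissue and genotype; each dot is a sample, and the bar and whiskers are the mean ± SD. Cdk6 spans from 134 CPM in a WT lung to 0.489 in a Cic-S-KO cerebellum, and the 8 Cic-L-KO samples of Cdkn2c lie above all WT samples in both brain regions.

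WT cortex and WT cerebellum could be tested against each other, since they share age and batch label. Of the 10 genes, 7 differed, where 73.5% of all tested genes did, so the share is near the background. Ccnd2 was 6.50-fold higher in cortex (adjusted p = 1.1e-20) and Cdk6 was 4.12-fold higher (log2 2.04, SE 0.15, adjusted p = 3.69e-17). Ccnd1 was also higher in cortex (log2 0.61, SE 0.073, adjusted p = 2.1e-10). Cdkn1b was lower in cortex by a log2 difference of -1.63 (SE 0.046, adjusted p = 1.13e-34), Ccnd3 by -0.80 and Rb1 by -0.35. Cdk4 was called at -0.11 (adjusted p = 0.0247), a call lost with DESeq2 (adjusted p = 0.108), with RLE scaling (0.0974) and without the low-count filter (0.078). Cdkn1a, Cdkn1c and Cdkn2c did not pass.

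Ccnd1, the D-type cyclin that responds to ERK signalling and the listed Capicua target, rose in both brain regions of Cic-L-KO mice and was not called in lung. In cortex its CPM ran from 29.1 to 38.1 (median 36.1) in 8 WT samples, from 30.0 to 40.9 (median 32.1) in 7 Cic-S-KO samples and from 39.2 to 48.3 (median 41.1) in 8 Cic-L-KO samples. Every Cic-L-KO sample was above every WT sample, and the Cic-S-KO samples overlapped with both. The log2 fold change of Cic-L-KO against WT was 0.26 (SE 0.061, adjusted p = 8e-04) and that of Cic-S-KO was -0.06 (adjusted p = 0.617), and the knockouts differed by -0.32 (Cic-S-KO minus Cic-L-KO, adjusted p = 0.000149). In cerebellum Ccnd1 ran from 20.1 to 30.6 CPM (median 24.5) in WT, from 22.3 to 31.4 (median 25.4) for Cic-S-KO and from 30.1 to 39.6 (median 34.0) for Cic-L-KO. There 7 of the 8 Cic-L-KO samples lay above all WT samples. The log2 fold change of Cic-L-KO was 0.47 (SE 0.078, adjusted p = 0.000116) and that of Cic-S-KO was 0.08 (adjusted p = 0.58), and the knockouts differed by -0.39 (adjusted p = 0.00179). The Cic-L-KO effect did not differ by test between the regions (-0.21, adjusted p = 0.141). In lung the means were 134 ± 20.6 CPM in WT, 131 ± 11.5 for Cic-S-KO and 137 ± 17.9 for Cic-L-KO, and all 3 groups overlapped. LTO1, whose exons Ccnd1 overlaps, was not called in Cic-L-KO cortex (-0.09, adjusted p = 0.228) or cerebellum (-0.10, adjusted p = 0.134).

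Ccnd2, a cyclin prominent in neural precursors, had the highest mean per kilobase of the D-type cyclins in WT cortex and the lowest in WT cerebellum. In WT cortex it overlapped with Ccnd1 within 1 SD (9.59 ± 1.70 against 7.47 ± 0.619 CPM per kb). In cerebellum it ran from 10.7 to 18 CPM (median 15.4) in WT, from 12.1 to 29.4 (median 17.4) for Cic-S-KO and from 16.1 to 28.8 (median 21.2) for Cic-L-KO. Of the 8 Cic-L-KO samples, 6 were above all WT samples. Ccnd2 rose in Cic-L-KO cerebellum (log2 0.51, SE 0.15, adjusted p = 0.0175), a call lost without the low-count filter (adjusted p = 0.0558) and with a replicate block (0.0537). Summed choroid plexus markers varied from 30.8 to 4294 CPM over the cerebellum samples. Their medians were 1491 CPM in WT, 1241 for Cic-S-KO and 2123 for Cic-L-KO. What set this spread was not tested. The Cic-S-KO cerebellum with the highest Ccnd2 (29.4 CPM) also held the highest choroid plexus sum. With that sum as a covariate, Ccnd2 was still called in Cic-L-KO cerebellum (log2 0.42, adjusted p = 0.0061). In cortex Ccnd2 averaged 90.3, 87.0 and 92.0 CPM in WT, Cic-S-KO and Cic-L-KO, with no call. In lung it rose in Cic-L-KO from 290 ± 24.8 to 335 ± 23.2 CPM (log2 0.21, adjusted p = 0.0318). That call was lost without the Cic-L-KO lung replicate 1 (adjusted p = 0.0583) or without the WT lung replicate 7 (0.0538).

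Ccnd3, a D-type cyclin prominent in cells that differentiate, changed little in size. In lung it ran from 152 to 182 CPM (median 162) in WT, from 138 to 178 (median 159) for Cic-S-KO and from 176 to 198 (median 186) for Cic-L-KO. Cic-L-KO was higher than WT (log2 0.18, SE 0.046, adjusted p = 0.0215) and Cic-S-KO was lower than Cic-L-KO (-0.22, adjusted p = 0.00178), with 7 of 8 Cic-S-KO samples below all Cic-L-KO samples. A correction for GC content removed the call against WT (0.13, adjusted p = 0.0637). In cerebellum WT samples were tight, from 30.8 to 32.0 CPM, and all 7 Cic-S-KO samples (32.1 to 34.3 CPM) lay above them without a call (log2 0.07, adjusted p = 0.349). Of the 8 Cic-L-KO samples, 7 lay above all WT samples and 1 lay below, at 27.6. The cerebellar call in Cic-L-KO (log2 0.12, adjusted p = 0.0489) was lost under 7 alternatives, the GC correction among them (0.07, adjusted p = 0.323). In cortex Ccnd3 differed between the knockouts (-0.26, adjusted p = 0.0232) but not without the Cic-L-KO cortex replicate 5 (-0.17, adjusted p = 0.0683), which held 27.3 CPM where the other 7 held 16.4 to 21.2. That library also had the highest choroid plexus sum of the cortex samples, 1363 CPM. With that sum as a covariate the cortex difference was not called (-0.19, adjusted p = 0.162). The sum went with genotype in cortex, with medians of 31.0 CPM in WT, 20.8 for Cic-S-KO and 426 for Cic-L-KO. Cortex fits with this covariate, for any gene, therefore cannot fully separate the sum from genotype. Bysl, which overlaps Ccnd3, fell in Cic-L-KO cortex (-0.21, adjusted p = 0.000972).

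The mix of D-type cyclins varied by tissue. Ccnd1, Ccnd2 and Ccnd3 made up 36.4%, 39.6% and 24.0% of their summed CPM per kb in WT lung, 39.6%, 50.2% and 10.3% in WT cortex, and 50.0%, 15.2% and 34.9% in WT cerebellum. In Cic-L-KO cerebellum the shares were 54.0%, 16.7% and 29.3%, and the Ccnd3 share ran from 24.9% to 31.9% where WT ran from 30.2% to 37.6%. Summed D-type cyclin level in cerebellum was 9.46 to 12.1 CPM per kb in WT and 12.1 to 14.7 in Cic-L-KO. These shares describe transcripts and were not tested. They depend on the exon lengths used, which were 4709, 9409 and 8775 bases for Ccnd1, Ccnd2 and Ccnd3.

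**Figure D3:**
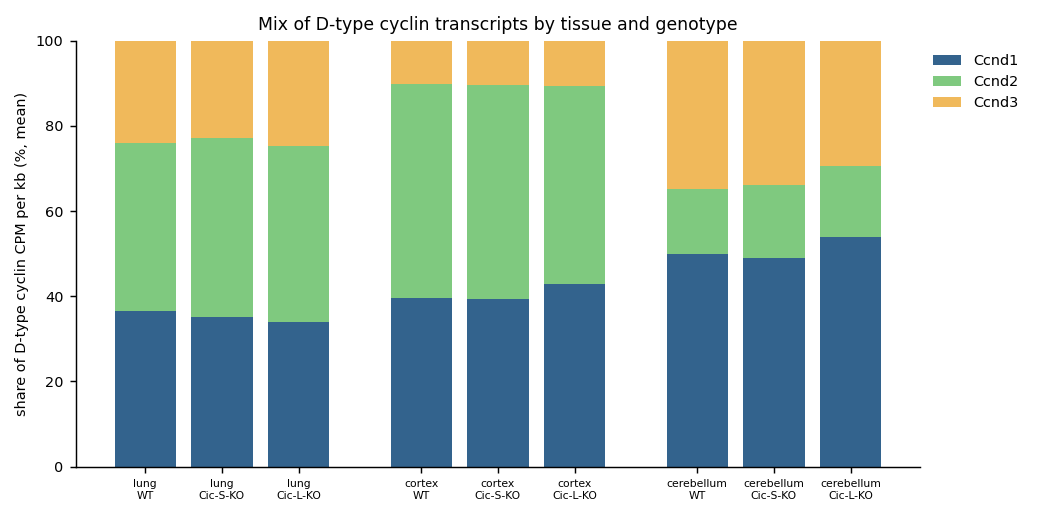
Mean share (%) of Ccnd1, Ccnd2 and Ccnd3 in their summed CPM per kb of exon, by tissue and genotype (8 samples a bar, 7 in Cic-S-KO cortex and cerebellum). Ccnd2 fills 50.2% of the WT cortex bar and 15.2% of the WT cerebellum bar.

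Of the kinases, Cdk6 changed with the long isoform in cortex. It ran from 3.07 to 5.48 CPM (median 3.93) in WT, from 3.46 to 4.51 (median 4.09) for Cic-S-KO and from 5.96 to 7.46 (median 6.70) for Cic-L-KO. No Cic-L-KO sample overlapped with WT or Cic-S-KO. Cdk6 was 1.71-fold higher than WT (log2 0.77, SE 0.099, adjusted p = 2.23e-07), while Cic-S-KO stood at 0.02 (adjusted p = 0.944). In cerebellum, at 11 to 51 counts a library, it averaged 1.01 ± 0.182 CPM in WT, 1.30 ± 0.389 for Cic-S-KO and 1.43 ± 0.414 for Cic-L-KO, and neither knockout was called (0.37, adjusted p = 0.302, and 0.49, adjusted p = 0.0866). The Cic-L-KO value was called without the Cic-S-KO cerebellum replicate 2 (adjusted p = 0.0418). The difference between the regions was not called (0.28, adjusted p = 0.361). Lung Cdk6 ran from 104 to 134 CPM (median 113) in WT, from 83.0 to 111 (median 100.5) for Cic-S-KO and from 109 to 130.5 (median 119) for Cic-L-KO. It fell in Cic-S-KO (-0.20, SE 0.053, adjusted p = 0.0115), with 6 of 8 samples below all WT samples, and was lower than in Cic-L-KO (-0.28, adjusted p = 0.00074).

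Cdk4, the partner kinase present in nearly all dividing cells, moved by less. In cortex it ran from 25.9 to 32.7 CPM (median 29.2) in WT, from 29.1 to 33.3 (median 30.4) for Cic-S-KO and from 30.5 to 35.4 (median 32.9) for Cic-L-KO. The groups overlapped, and 5 of 8 Cic-L-KO samples were above all WT samples. Cdk4 rose in Cic-L-KO (log2 0.19, SE 0.047, adjusted p = 0.00141), and Cic-S-KO gave 0.10 (adjusted p = 0.204). In cerebellum the Cic-L-KO value was 0.02 (adjusted p = 0.794), and the effect differed between the regions (0.17, SE 0.063, adjusted p = 0.0381), where 23.0% of all tested genes differed and 2 of the 10 genes did. That difference was lost with RLE scaling (adjusted p = 0.0545) and without the low-count filter (0.132). Lung Cdk4 averaged 203, 196 and 200 CPM in WT, Cic-S-KO and Cic-L-KO, with no call. Tspan31, which overlaps Cdk4, gave 0.06 in Cic-L-KO cortex (adjusted p = 0.215) and rose in Cic-L-KO cerebellum (0.15, adjusted p = 0.0135).

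Cdkn2c, the INK4 inhibitor that holds CDK4 and CDK6 inactive, gave the largest change. In cerebellum its CPM was 3.35 to 5.56 (median 4.43) in WT, 2.72 to 4.25 (median 3.29) for Cic-S-KO and 8.97 to 11.7 (median 10.2) for Cic-L-KO. Counts there were 58 to 302 a library. All 8 Cic-L-KO samples were above every WT and Cic-S-KO sample, the lowest of them at 8.97 CPM and the highest WT sample at 5.56. The log2 fold change was 1.22 in Cic-L-KO (SE 0.096, adjusted p = 1.31e-09). In Cic-S-KO it was -0.34 (SE 0.10, adjusted p = 0.0391), with 4 of 7 samples below all WT samples. The Cic-S-KO call was lost under 4 alternatives, among them a fit without the Cic-S-KO cerebellum replicate 6 (adjusted p = 0.0816). The knockouts differed by -1.56 (SE 0.10, adjusted p = 2.01e-11).

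In cortex Cdkn2c was 2.92 to 4.62 CPM (median 3.46) in WT, 2.40 to 4.07 (median 3.06) for Cic-S-KO and 5.19 to 6.37 (median 5.61) for Cic-L-KO. Again no Cic-L-KO sample overlapped with the other groups. The Cic-L-KO change was 0.67 (SE 0.11, adjusted p = 1.02e-05), and the Cic-S-KO value was -0.18 (adjusted p = 0.363). The Cic-L-KO effect was smaller in cortex than in cerebellum by a log2 difference of -0.55 (SE 0.14, adjusted p = 0.00362). Lung went the other way: Cdkn2c fell in Cic-L-KO from 88.1 ± 5.78 to 74.9 ± 7.98 CPM (log2 -0.24, SE 0.059, adjusted p = 0.0188), with 5 of 8 samples below all WT samples. In Cic-S-KO lung it averaged 80.1 ± 6.55 CPM (-0.14, adjusted p = 0.11). The brain and lung effects were not tested against each other. The calls for Cdkn2c in Cic-L-KO held under every alternative run, in all 3 tissues. Of the other INK4 genes, Cdkn2b was called higher in lung of Cic-L-KO mice (0.36, SE 0.078, adjusted p = 0.00782), from 36.3 ± 6.38 to 46.5 ± 2.79 CPM, and Cdkn2d rose in Cic-S-KO lung (0.23, adjusted p = 0.0255).

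Among the CIP/KIP inhibitors, Cdkn1a, a gene that p53 and stress hormones can induce, varied widely between brain samples. In cerebellum it ran from 19.3 to 45.6 CPM (median 37.1) in WT, from 15.2 to 29.5 (median 17.6) for Cic-S-KO and from 33.2 to 41.8 (median 37.5) for Cic-L-KO. Of the 7 Cic-S-KO samples 4 were below all WT samples, and all 7 were below every Cic-L-KO sample. Cdkn1a fell in Cic-S-KO cerebellum (-0.76, SE 0.19, adjusted p = 0.0165), and was lower than in Cic-L-KO (-0.89, adjusted p = 0.00318). With the 2 compared genotypes alone in the fit, the fall against WT was not called (adjusted p = 0.0587). Cortex WT samples spread from 17.9 to 49.6 CPM, and neither knockout was called (-0.27, adjusted p = 0.497, and -0.24, adjusted p = 0.377). For the Cic-S-KO effect 0 of the 10 genes differed between the regions with edgeR (4.50% of all genes did), 0 at an unadjusted p under 0.05 and 0 with DESeq2. The value for Cdkn1a was 0.49 (adjusted p = 0.363), and for the Cic-L-KO effect it was -0.37 (adjusted p = 0.364). With a replicate block both were called, at 0.46 (adjusted p = 0.0157) and -0.39 (adjusted p = 0.00677). WT Cdkn1a was lowest in replicates 1 and 2 in both cortex (22.2 and 17.9 CPM) and cerebellum (20 and 19.3 CPM). WT replicates 3 to 8 held 36.4, 27.4, 49.6, 45.3, 37.7 and 40.6 CPM in cortex. In cerebellum they held 33.0, 26.1, 45.4, 43.6, 41.3 and 45.6 CPM, so WT values went together by number. Whether equal numbers mark the same animal is not given in the labels. The p-values between regions without the block take the samples as independent. In lung Cdkn1a rose in Cic-S-KO from 49.9 ± 4.44 to 59.9 ± 7.68 CPM (0.26, SE 0.076, adjusted p = 0.0199), which was lost without the WT lung replicate 2 (adjusted p = 0.0517).

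Cdkn1c, an imprinted inhibitor linked to cells leaving the cycle, rose in Cic-L-KO lung and cortex. In lung it ran from 39.5 to 44.3 CPM (median 42.2) in WT, from 37.3 to 53.4 (median 45.0) for Cic-S-KO and from 45.3 to 55.8 (median 53.4) for Cic-L-KO. No Cic-L-KO sample overlapped with WT. The change was 0.32 (SE 0.061, adjusted p = 0.00228), and Cic-S-KO was lower than Cic-L-KO (-0.23, adjusted p = 0.014). In cortex the ranges were 2.29 to 4.43 CPM in WT, 3.39 to 5.05 for Cic-S-KO and 3.89 to 6.29 for Cic-L-KO. The Cic-L-KO change was 0.60 (SE 0.12, adjusted p = 0.000243), and it was 0.49 with the choroid plexus sum as a covariate (adjusted p = 0.00249). The Cic-S-KO value was 0.33 (adjusted p = 0.121). In cerebellum Cdkn1c spread from 1.97 to 8.92 CPM, and the sample with the lowest value and the one with the highest also had the lowest and the highest choroid plexus sum. Cic-L-KO was not called there (0.61, SE 0.23, adjusted p = 0.0606). It was called with the choroid plexus covariate (0.46, adjusted p = 0.0213), and 4 other alternatives gave an adjusted p of 0.0194 to 0.0407.

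Cdkn1b, the inhibitor that keeps many neurons out of the cycle, was the most abundant member per kilobase in both brain regions. In cortex it ran from 58.2 to 63.9 CPM (median 61.5) in WT, from 53.1 to 60.9 (median 56.1) for Cic-S-KO and from 49.6 to 57.7 (median 55.0) for Cic-L-KO. No Cic-L-KO sample overlapped with WT. Cdkn1b fell in Cic-L-KO cortex (-0.18, SE 0.037, adjusted p = 0.00027). The Cic-S-KO value was -0.11 (adjusted p = 0.0672), called with DESeq2 (adjusted p = 0.0424). In cerebellum the means were 200.5 ± 14.6, 181 ± 12.2 and 195 ± 15.2 CPM in WT, Cic-S-KO and Cic-L-KO, with no call (-0.15, adjusted p = 0.0719, and -0.04, adjusted p = 0.638). Lung Cdkn1b averaged 133, 130 and 140 CPM and was not called against WT.

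Rb1, the substrate on which the kinases act, fell in Cic-L-KO cortex. It ran from 32.2 to 40.3 CPM (median 34.8) in WT, from 30.0 to 37.5 (median 31.9) for Cic-S-KO and from 26.5 to 31.8 (median 29.5) for Cic-L-KO. All Cic-L-KO samples were below all WT samples. The change was -0.26 (SE 0.050, adjusted p = 9.16e-05), and Cic-S-KO gave -0.11 (adjusted p = 0.203). In cortex the knockouts also differed from each other in Rb1 level (Cic-S-KO minus Cic-L-KO, 0.15, adjusted p = 0.0215), a call lost with the GC correction (0.12, adjusted p = 0.0561) and with the choroid plexus covariate (0.13, adjusted p = 0.115). Cerebellum gave -0.12 (adjusted p = 0.144) and -0.09 (adjusted p = 0.192), and lung gave -0.15 (adjusted p = 0.126) and -0.13 (adjusted p = 0.268), for Cic-S-KO and Cic-L-KO. Rcbtb2, which shares exon bases with Rb1, also fell in Cic-L-KO cortex (-0.28, adjusted p = 0.00072), and its part in the Rb1 count was not tested.

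Around these members, 25 other genes of the G1 pathway were listed, and the share that passed was not tested against other genes. In Cic-L-KO cortex, 3 of 24 tested rose and 6 fell, where 21.4% of all genes were higher and 21.9% lower, so the counts are near the background: the growth regulator Myc rose (0.90, SE 0.086, adjusted p = 8.48e-10), and Tfdp2, an E2F partner (-0.31), and Ccne2, cyclin E2 (-0.63), fell. In Cic-L-KO cerebellum, where 21.5% of all genes passed, 1 of 23 rose, E2f3 (0.28, adjusted p = 0.000802), and 4 fell, among them Fbxw7, a ubiquitin ligase subunit that targets cyclin E (-0.22), and Ccne2 (-0.48). In Cic-L-KO lung, where 4.89% of all genes passed, 1 of 25 rose, Cdkn2b, and 3 fell, among them Tfdp1 (-0.16) and Ccne2 (-0.41). Ccne2 averaged 7.67 ± 0.96 CPM in WT and 4.96 ± 0.75 in Cic-L-KO cortex, where Cdk6 and Cdkn2c rose. Cic-S-KO had 1 higher and 2 lower in lung (Cdkn2d, then Tfdp1 at -0.13 and E2f3 at -0.21), 0 and 1 in cortex (Fbxw7, -0.24) and 2 and 1 in cerebellum (Ccne1 at 0.32 and Cdk2 at 0.42, then Fbxw7 at -0.13). The shares of all genes that passed in these tissues were 15.7%, 6.53% and 8.23%. The list's median log2 fold change was -0.09 in Cic-L-KO cortex and -0.09 in Cic-L-KO cerebellum, against 0.011 and 0.0038 for all genes.

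Markers of dividing cells were few in adult brain. Summed over 10 measured genes of 12 listed, they came to 19.8 to 36.8 CPM in the brain samples and 840 to 1364 in lung. In Cic-L-KO lung 6 of 10 tested fell, where 2.28% of all genes were lower. Ccnb1 (-0.45, adjusted p = 0.00154) and Ccna2 (-0.37) led, in the same samples in which Ccnd2, Ccnd3 and Cdkn1c rose. In Cic-L-KO cerebellum 3 of 10 fell, where 21.5% of all genes passed in either direction. Mcm5 (-0.37) and Ccna2 (-0.78) came first by p, and the sum ran from 25.7 to 30.9 CPM against 30.8 to 36.8 in WT. Cic-L-KO cortex had 1 higher, Ccna2 (0.49), and 1 lower, Rrm2 (-0.55), of 8 tested. Of all genes there, 21.4% were higher and 21.9% lower. Cic-S-KO had 1 lower in cerebellum, Mcm5 (-0.30), where 3.89% of all genes were lower. It had 0 in lung and cortex, where 15.7% and 6.53% of all genes passed.

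Other genes that share inducers with Cdkn1a were called in both directions. Of 11 tested p53 targets, 1 rose in Cic-S-KO lung, Bax (0.21, adjusted p = 0.0411), where 9.99% of all genes were higher. In Cic-S-KO cerebellum, where Cdkn1a fell and 8.23% of all genes passed, 2 rose, Plk2 (0.23) and Sesn2 (0.26). In Cic-L-KO cortex 3 rose and 3 fell, near the background of 21.4% of all genes higher and 21.9% lower. Ccng1 (-0.42) and Sesn2 (0.28) were first by p there. Cic-L-KO cerebellum had 1 higher, Sesn2 (0.63), where 10.9% of all genes were higher. Cic-L-KO lung had 1 higher and 2 lower, with Ccng1 (-0.28) and Bbc3 (0.32) first, where 2.62% were higher and 2.28% lower. Cic-S-KO cortex had 1 lower, Ccng1 (-0.30), where 6.53% of all genes passed. Of 8 glucocorticoid-responsive genes, 6 fell in Cic-L-KO cortex (Sgk1 at -0.80 and Per1 at -0.64 first by p), where 21.9% of all genes were lower. In Cic-L-KO cerebellum, where 21.5% of all genes passed, 2 fell (Sgk1 at -0.58 and Hif3a at -1.47). In Cic-S-KO, 1 fell in cortex, Sgk1 (-0.64), and 1 in cerebellum, Plin4 (-0.95), and in lung 0 passed in either knockout. Their summed CPM in cerebellum ran from 271 to 584 in WT, 305 to 450 for Cic-S-KO and 285 to 363 for Cic-L-KO, and their part in the spread of Cdkn1a was not tested.

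Markers of other cell types moved with the same groups. Of 8 endothelial markers, 4 rose in Cic-L-KO cortex, where 21.4% of all genes were higher, and 7 rose in Cic-L-KO cerebellum, where 10.9% were, with none at 0. Their summed CPM ran from 143 to 206 in WT cortex and from 177 to 225 in Cic-L-KO cortex, and from 113 to 147 in WT cerebellum and from 177 to 212 in Cic-L-KO cerebellum, where the groups did not overlap. Of 8 neuron markers, 5 fell in Cic-L-KO cortex, against 21.9% of all genes, and the sum there ran from 8474 to 9368 CPM against 11175 to 12520 in WT. In Cic-L-KO cerebellum, where 21.5% of all genes passed, 2 neuron markers rose and 4 fell. In Cic-S-KO cerebellum, where 8.23% passed, 3 neuron markers rose and 5 fell. Of 8 astrocyte markers, 4 rose in Cic-L-KO cortex, and their sum overlapped with WT (4688 to 6065 CPM against 4259 to 5497). Mural cell markers summed to 37.6 to 50.3 CPM in WT cerebellum and 53 to 61.7 in Cic-L-KO cerebellum. In lung, summed alveolar type 1 markers ran from 4277 to 4934 CPM in WT and from 5039 to 5511 in Cic-L-KO. Summed leukocyte markers ran from 1425 to 2061 in WT and from 1481 to 3596 in Cic-S-KO. Summed microglia markers ran from 226 to 290 CPM in WT lung and from 301 to 413 in Cic-S-KO lung. In Cic-S-KO cerebellum, summed granule cell markers ran from 3994 to 6003 CPM against 5622 to 7323 in WT. Summed Purkinje cell markers there ran from 10658 to 13831 CPM against 8287 to 12014 in WT. In Cic-S-KO lung, 3 of 8 endothelial and 3 of 7 tested mural markers fell, where 5.73% of all genes were lower. The part of these shifts in the changes of Cdkn2c, Ccnd1, Cdk6 and the other members was not tested.

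**Figure D4:**
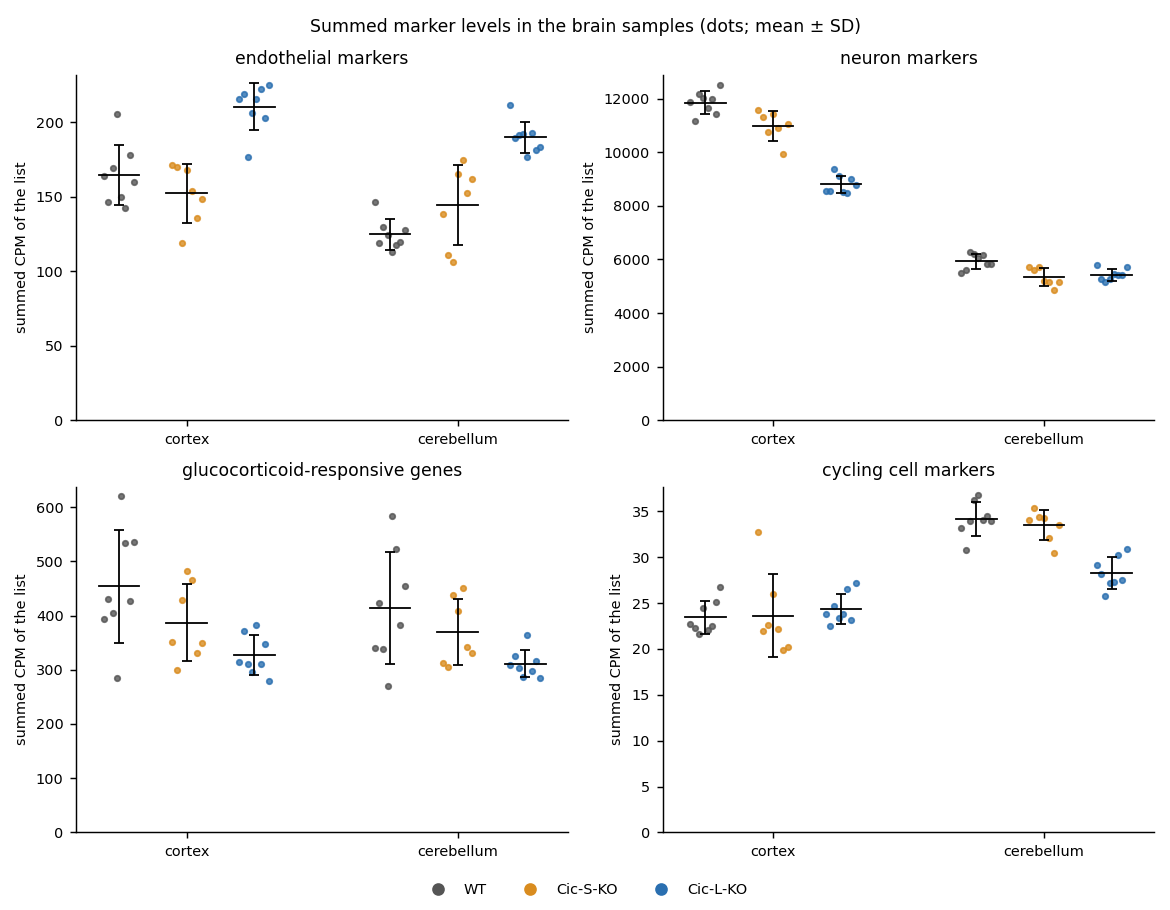
Summed CPM of 4 marker lists in each cortex and cerebellum sample (dots; bar and whiskers, mean ± SD). Endothelial sums in Cic-L-KO cerebellum (177 to 212) lie above all WT values (113 to 147), and neuron sums in Cic-L-KO cortex (8474 to 9368) lie below all WT values (11175 to 12520).

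Across all 70 samples, with each tissue's mean removed, the genes whose log2 CPM followed Ccnd1 most closely among 10956 expressed genes were Slc7a1, a cationic amino acid transporter (Pearson r = 0.76), Ptprk, a receptor tyrosine phosphatase (0.76), and Aars, alanyl-tRNA synthetase (0.73). Cdk6 was left out of the correlations for its low level in cerebellum. Of the other 8 members, Cdkn2c came closest to Ccnd1 (0.57), followed by Ccnd2 (0.29). Among the 36 pairs of the 9 members compared, Cdkn1c with Ccnd2 gave the highest value, 0.65. Such values share libraries, genotypes and scaling and are a description. Slc7a1 rose with Ccnd1 in Cic-L-KO cerebellum, from 61.2 ± 2.00 to 79.6 ± 4.15 CPM (log2 0.38, SE 0.041), while in Cic-L-KO cortex it gave 0.12 (adjusted p = 0.0552).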

How the data were processed

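RNA from flash-frozen lung, cortex and cerebellum was polyA-selected and sequenced, per the labels' protocols. The authors' deposited table holds unnormalised counts for 50789 Ensembl gene identifiers, with versions, in 70 columns, each matched to 1 sample by its library name. The submitters' processing notes name STAR 2.7 and GRCm38.p6, and the counting program, annotation and strand setting are not given in the sources used here. Symbols, positions and exon lengths came from GENCODE M21 (GRCm38), which matched 50725 identifiers without their version.

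Counts were filtered with filterByExpr, scaled by TMM and tested per tissue with edgeR 4.0.16 (R 4.3.3), by a robust quasi-likelihood fit over all 3 genotypes. This left 16695 genes in lung, 16974 in cortex and 16643 in cerebellum. A fit of 46 brain samples and 18032 genes compared regions. Adjusted p is Benjamini-Hochberg over all tested genes, with a threshold of 0.05, and the SE was derived from the F statistic. CPM are TMM-scaled within a tissue. Alternatives were DESeq2 1.42.0, RLE scaling, no filter, only the compared genotypes, sex read from Y-linked and Xist counts, a replicate block and a GC correction in 20 bins. Leaving out 9 libraries and a choroid plexus covariate were added after seeing the data. The fit was tested on simulated data. No replicate pair had identical counts (0 of 84 in lung, 77 in cortex and 77 in cerebellum), and the lowest chi-square per degree of freedom was 4.17.

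Members and lists were chosen with earlier results of these data known. The genes named were all 10 members, Cic, genes overlapping a member, per contrast the 3 other G1 genes of smallest p that passed and the 2 of each further list, and the 3 genes most correlated with Ccnd1. Listed genes that matched no identifier (8) were not analysed here.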

Additional observations from a re-analysis of the deposited data

Results flagged for a closer look

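In 10 of 90 sets of a gene's values in a group, 1 sample lay apart from the rest by Dixon's ratio (its gap to the nearest sample as a share of the range), where chance gives about 4.5. In Cic-S-KO cerebellum, replicate 6 was high for Ccnd2 (29.4 CPM against 12.1 to 18.6, ratio 0.627) and Cdkn1c (8.92 against 3.17 to 4.93, ratio 0.695), and replicate 2 was low for Cdk6 (0.489 against 1.21 to 1.64, ratio 0.629). Replicate 6 also had the highest summed choroid plexus markers of all cerebellum samples, 4294 CPM. In cortex, Cic-L-KO replicate 5 was high for Ccnd3 (27.3 against 16.4 to 21.2, ratio 0.561) and WT replicate 8 for Cdk6 (5.48 against 3.07 to 4.18, ratio 0.538). WT cerebellum replicate 4 was high for Rb1 (55.9 against 44.1 to 49.2, ratio 0.565). In lung, WT replicate 7 was high for Cdk4 (228 against 191 to 206, ratio 0.594), WT replicate 8 was high for Cdk6 (134 against 104 to 115, ratio 0.611), WT replicate 2 was low for Cdkn1b (113 against 130 to 142, ratio 0.576), and Cic-L-KO replicate 1 was low for Cdkn1c (45.3 against 51.3 to 55.8, ratio 0.571).

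The Cic-L-KO effect differed between cortex and cerebellum by the interaction test for Cdkn2c (log2 difference -0.549, adjusted p = 0.00362 with edgeR) and for Cdk4 (0.174, adjusted p = 0.0381).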

How the results depend on the processing

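Over 1080 member values under 17 alternatives, 1036 kept their status, which counts values that were not called in either fit. Of the rest, 27 lost a call, 17 gained one and 0 reversed among called values. Of the 30 calls within a tissue, 21 held under every alternative. With 2 genes called in Cic-S-KO cerebellum, the count was 1 without the low-count filter, 1 with a replicate block, 0 with only the compared genotypes and 1 without the Cic-S-KO replicate 6. The count of 4 in Cic-L-KO cerebellum became 2 without the filter and 2 with a replicate block. Cic-S-KO cortex went from 0 to 1 with DESeq2, Cic-S-KO lung from 2 to 1 without the WT lung replicate 2, and the knockouts' difference in cortex from 5 to 3 with the choroid plexus covariate. Between regions, the Cic-S-KO effect went from 0 to 1 with a replicate block (Cdkn1a, adjusted p = 0.0157), and the Cic-L-KO effect from 2 to 1 with RLE scaling, to 1 without the filter, to 3 with a replicate block (Cdkn1a, adjusted p = 0.00677) and to 3 with DESeq2 (Rb1, adjusted p = 0.0483). The cause of these changes was not tested. Other scalings moved the median of all genes by at most 0.031.

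The labels do not say whether equal replicate numbers mark the same animal, so the numbers were not treated as pairs. Over 23 cortex and cerebellum pairs the mean correlation of deviations was 0.087, from -0.031 to 0.215, and over 0.1 in 10. Of these 23 samples, 10 correlated best with their own number. The library names give a hint of pairing, since the Cic-S-KO groups of cortex and cerebellum leave out the same number. The main fit of the brain samples still took these samples as independent, and its p-values between regions rest on that. Samples of different genotypes, which cannot be the same animal, were also compared by equal number. Their mean correlations were 0.141, 0.160 and 0.136 in lung and ran from -0.024 to 0.118 within a brain region. Among them, 4, 4 and 2 of 8 in lung correlated best with their own number. In cortex 3 of 7, 2 of 8 and 2 of 7 did, and in cerebellum 0 of 7, 2 of 8 and 1 of 7. Correlations and best matches of this size therefore cannot tell whether equal numbers mark the same animal. With the replicate block, Cdkn2c in Cic-S-KO lung was also called (adjusted p = 0.048). Low depth limits Cdk6 in cerebellum, at 11 to 51 counts a library.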
